A study of Homo sapiens with 16 samples.

Results

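The genes described here are 54 genes of mitosis followed in MCF10A cells after addition of a small molecule that inhibits the HER2 kinase. The set was a fixed list of symbols, chosen with earlier results of these data known. Every array row whose symbol was on the list was taken, and rows of the same gene were kept separate. Of the 54 symbols, 48 were found among the 18190 symbols of the array, in 53 of its 20589 rows. MCF10A is a nontransformed human breast epithelial cell line, here the parental line and not the derivative made to over express HER2. The cells grew in medium with insulin, EGF and hydrocortisone, and the inhibitor was added at 1 µM. RNA came from parallel cultures every 3 hours from 0 to 45 hours, and each of the 16 time points was measured on 1 Illumina human Ref8v2 array. The 0 hour culture was untreated and the other 15 received the inhibitor. By the paper's methods, cultures received fresh medium the day after plating and again when treatment began. No untreated culture was sampled later. The effects of the inhibitor, of that fresh medium and of time in culture therefore cannot be told apart in any comparison that follows.

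Mitosis is driven by CDK1 bound to cyclins A and B, helped by the Polo-like, Aurora and NEK kinases, and it ends when the anaphase-promoting complex marks cyclins and securin for destruction. Kinesins and microtubule-binding proteins build the spindle, centromere and checkpoint proteins tie chromosomes to it, and a contractile ring then divides the cell. Most of these genes are transcribed in G2 and mitosis, and in quiescent cells they are repressed by the DREAM complex, which binds an element called the CHR. In RNA from a whole culture, fewer cells in G2 and mitosis and less RNA per cell cannot be told apart.

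The arrays were alike in the share of rows above background (detection p under 0.05), between 50.1% and 52.9%. Their median raw intensity lay between 210, at 45 hours, and 254. The estimated mean of the negative controls was 188 to 199 from 0 to 21 hours and 166 to 185 from 24 hours on. The part of this difference in the results was not tested. No 2 arrays held identical values. The basal keratins KRT5, KRT17 and KRT6A, the epithelial keratins KRT8 and KRT18, CDH1, CDH3, TACSTD1 and EGFR each had a row above background on all 16 arrays, whereas TP73L was so on 10 arrays and KRT14 on 1. All 5 fibroblast markers looked for, and the hormone receptor genes ESR1 and PGR, were above background on none, and so were 2 of 3 endothelial and 3 of 4 leukocyte markers. FOXA1 was above background on 16 arrays, GATA3 and the endothelial PECAM1 on 15 each, and the leukocyte gene PTPRC on 5, and their part in the results was not tested.

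Of the 53 rows, 49, for 47 genes, were above background on at least 3 arrays and were tested among 11957 such rows. Of these 49 rows, 47 were above background on all 16 arrays. ECT2 was so on 15 arrays and INCENP on 3. The 4 rows left out were CDC25B ILMN_137183, KIF18A ILMN_27839 and KIF23 ILMN_13891, not above background on any array, and UBE2C ILMN_12357, above it on 2 arrays. KIF18A, a kinesin that damps chromosome movement, had no other row. AURKA, NCAPD2, NCAPG, NCAPH, SMC2 and SMC4 were not found under these symbols but stand on the array under older ones (STK6, CNAP1, HCAP-G, BRRN1, SMC2L1 and SMC4L1). Their 7 rows, 6 of them tested, are described on their own and are outside the counts.

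The promoters are shown first, because a shared promoter element is what many of these genes have in common besides the list. RefSeq start sites on GRCh38.p14 were given for 46 of the 54 genes, in 61 windows from 250 bases before to 50 bases after a start. No window was given for AURKA, BIRC5, BUB3, FOXM1, RACGAP1, TPX2, TTK and UBE2C. The 100 bases just before the start are printed below, 5′ to 3′ on the strand of the gene. They are given for 5 members that hold both elements and for CCNB1, whose window holds TTTGAA on neither strand. Capitals mark TTTGAA, the only letters searched for as the CHR, and the CCAAT box, each also as its reverse complement. CCNB2 is at chr15:59105046-59105145 (plus strand), PLK1 at chr16:23678789-23678888 (plus), CDC20 at chr1:43358881-43358980 (plus), CDC2 at chr10:60778378-60778477 (plus), KIF4A at chrX:70290004-70290103 (plus) and CCNB1 at chr5:69167050-69167149 (plus).
CCNB2: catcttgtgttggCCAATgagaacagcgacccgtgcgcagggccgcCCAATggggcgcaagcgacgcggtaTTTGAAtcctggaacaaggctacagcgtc
PLK1: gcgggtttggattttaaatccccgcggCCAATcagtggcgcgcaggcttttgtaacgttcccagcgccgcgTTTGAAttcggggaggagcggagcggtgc
CDC20: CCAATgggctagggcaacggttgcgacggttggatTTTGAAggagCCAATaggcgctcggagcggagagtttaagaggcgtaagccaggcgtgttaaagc
CDC2: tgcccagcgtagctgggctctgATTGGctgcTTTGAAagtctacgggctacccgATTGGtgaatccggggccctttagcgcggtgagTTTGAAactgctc
KIF4A: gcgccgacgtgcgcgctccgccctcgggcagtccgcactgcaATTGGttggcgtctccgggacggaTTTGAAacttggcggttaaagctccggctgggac
CCNB1: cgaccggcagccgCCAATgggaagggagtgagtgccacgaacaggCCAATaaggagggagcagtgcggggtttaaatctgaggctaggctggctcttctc

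The letters TTTGAA, searched on both strands, were found in the windows of 33 of the 46 genes. By window, 59% of those of the mitosis genes held them, beside 15.2% of all 35116 windows. In PLK1, CCNB2 and KIF4A the match lay close to the start, and so it was more widely: 70.2% of the 47 matches in these windows lay within 50 bases of a start, beside 27.2% of the matches in all windows. CCAAT, also on both strands, stood in 68.9% of the windows of mitosis genes and in 34.6% of all. In CCNB2, CDC20, CDC2 and CCNB1 the 100 bases shown hold a pair of CCAAT boxes, and at least 2 were present in 36.1% of the windows of mitosis genes, against 10.8% of all. Both elements occurred together in 44.3% and 5.9%. Only 1 CHR match overlapped a CCAAT match. TATAAA, on either strand, was found in 4.92% of these windows and in 11.5% of all. These are matches of letters, not sites of binding.

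Messages for mitosis moved together through the series, in 3 stages. Most were lower at 9 hours than at 0 hours, all 49 rows were higher at 12 hours than at 9 hours, and from 36 hours they were lower than at any time from 24 to 33 hours in 47 of 49 rows. At their highest, 47 of 49 rows stood between 12 and 33 hours (20 of them at 12 hours and 14 at 15 hours), and 44 were lowest at 45 hours. All 49 were lower at 45 hours than at 0 hours, by a median log2 difference of -1.31. The highest array stood 1.55-fold to 6.55-fold above the lowest, with a median of 4.15-fold, and KIF15, a spindle kinesin, had the widest range. Tested as a smooth course over time with limma, 47 of 49 rows changed (adjusted p under 0.05), beside 54.7% of all 11957 rows. The other two were CDC25B ILMN_137102 (adjusted p = 0.27) and INCENP (adjusted p = 0.72).

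**Figure D1:**
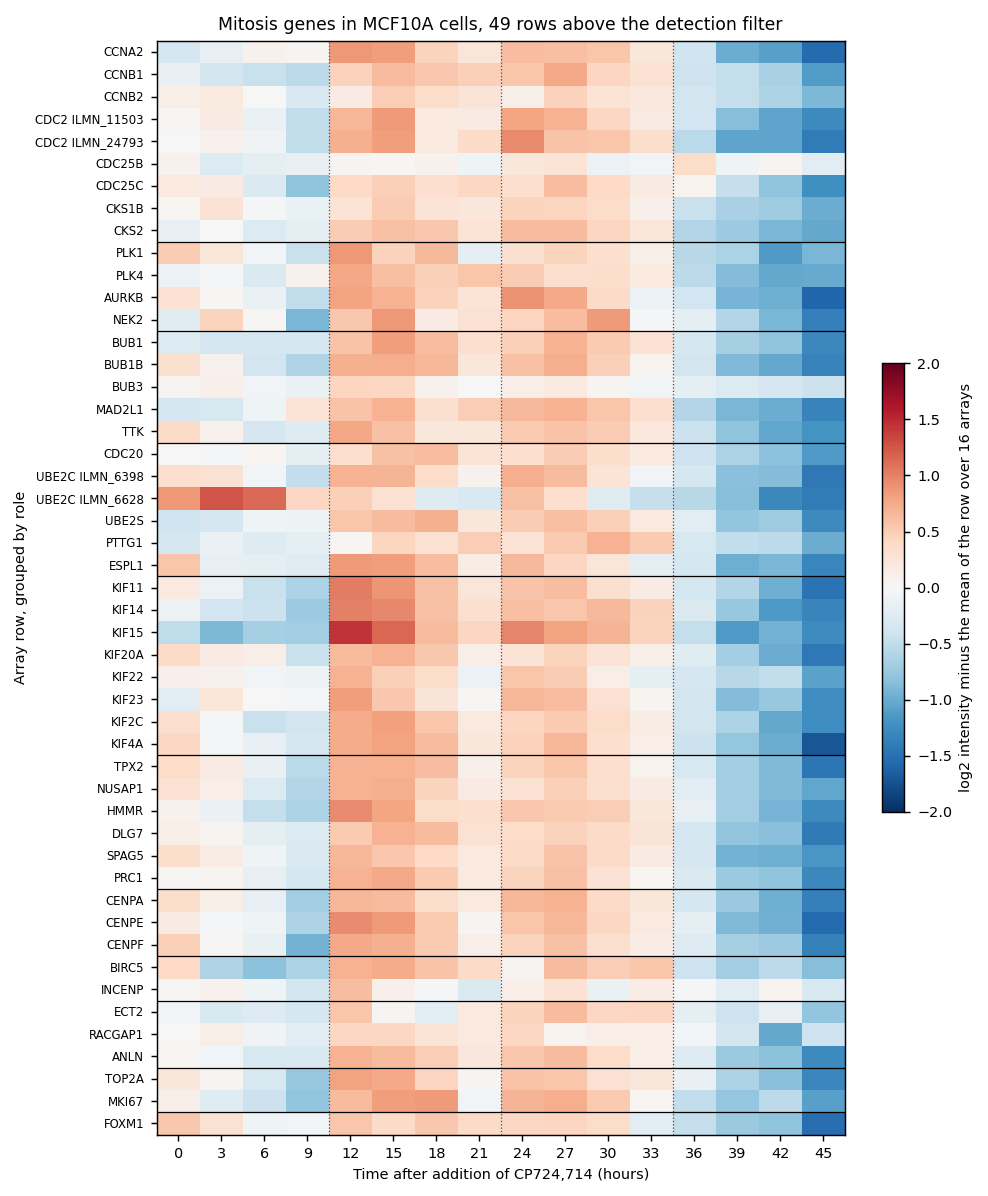
Log2 intensity of each of the 49 tested rows at the 16 time points, minus the mean of the row (colour, red high and blue low); rows are grouped by role (black lines), and dotted lines part the series into 4 windows of 4 arrays. All 49 rows step up from 9 to 12 hours, and 44 are lowest at 45 hours; UBE2C ILMN_6628 is instead highest at 3 hours.

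For the comparisons, the 16 arrays were split into 4 windows of 4 time points, 0-9, 12-21, 24-33 and 36-45 hours. The windows hold different times and are not replicates of a condition, so the spread within a window also holds change over its 9 hours. Values are log2 normalized intensities, and changes are differences of window means with their standard error (SE) from limma.

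From 0-9 to 12-21 hours, 29 of 49 rows rose, beside 15.1% of all rows, and 1 fell, beside 14.4% of all rows. The median change was 0.62 on the log2 scale, or 1.54-fold, against 0 over all rows. The largest rises were those of 3 kinesins and survivin: KIF15 rose by 1.61 (SE 0.21, adjusted p = 3e-05), KIF14 by 1.14 (SE 0.20, adjusted p = 0.00047), BIRC5 by 1.01 (SE 0.21, adjusted p = 0.0018) and KIF11 by 0.93 (SE 0.23, adjusted p = 0.0055). In 20 of 49 rows all 4 arrays of 12-21 hours lay above all 4 of 0-9 hours, beside 11.7% of all rows. The number of rows called depended on single arrays: against 30 in either direction with all arrays, it was 21 when the array of 15 hours was left out and 37 when that of 36 hours was.

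The change was concentrated in 1 step. From 9 to 12 hours, 36 of 49 rows gained at least 1.7-fold, beside 4.28% of all rows, with a median change of 1.05 on the log2 scale. KIF15 had the largest gain, 4.44-fold, followed by KIF14 with 3.34-fold, CENPF with 3.23-fold and KIF11 with 3.20-fold. This step has 1 array on each side and no test. It was also one of the larger steps for the whole array, since 3.08% of all rows lost at least 1.7-fold across it, and from 15 to 18 hours, for comparison, 0.51% gained and 0.694% lost that much. The labels and the file name no chip or hybridization batch, and the part of any batch in the step was not tested.

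Between 12-21 and 24-33 hours no mitosis row was called. Over all rows 0% rose and 0.0251%, or 3 rows, fell. At an unadjusted p under 0.05, 0 of the 49 mitosis rows and 585 of all rows passed. The median change was -0.10 on the log2 scale, and 0.02 with arrays scaled to a common median in place of quantile normalization. The largest changes were those of ECT2 (0.34), ESPL1 (-0.32), KIF11 (-0.26), PLK4 (-0.25) and KIF20A (-0.24), each with an adjusted p of 1. The window means hide a smaller step at their boundary. From 21 to 24 hours 44 of 49 rows were higher, with a median change of 0.27 on the log2 scale against 0 over all rows, and 1 row gained at least 1.7-fold, beside 0.485% of all rows. The part of any batch in this step was not tested either.

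From 24-33 to 36-45 hours, 47 of 49 rows fell, beside 18.7% of all rows, and none rose, beside 19.3% of all rows. At an unadjusted p under 0.05 the count was again 47. The median change was -1.19 on the log2 scale, a 2.28-fold loss, against 0 over all rows. KIF15 fell by 1.68 (SE 0.21, adjusted p = 7.6e-06), CDC2 ILMN_24793 by 1.62 (SE 0.19, adjusted p = 3.8e-06), MAD2L1 by 1.52 (SE 0.15, adjusted p = 8.7e-07) and CCNA2 by 1.5 (SE 0.19, adjusted p = 1e-05). AURKB and KIF14 each fell by 1.45. The groups did not overlap in 47 of 49 rows, beside 22.6% of all rows lower in this way. The 2 rows that did not pass were those of CDC25B and INCENP. Leaving out any 1 of the 16 arrays gave 47 each time.

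**Figure D2:**
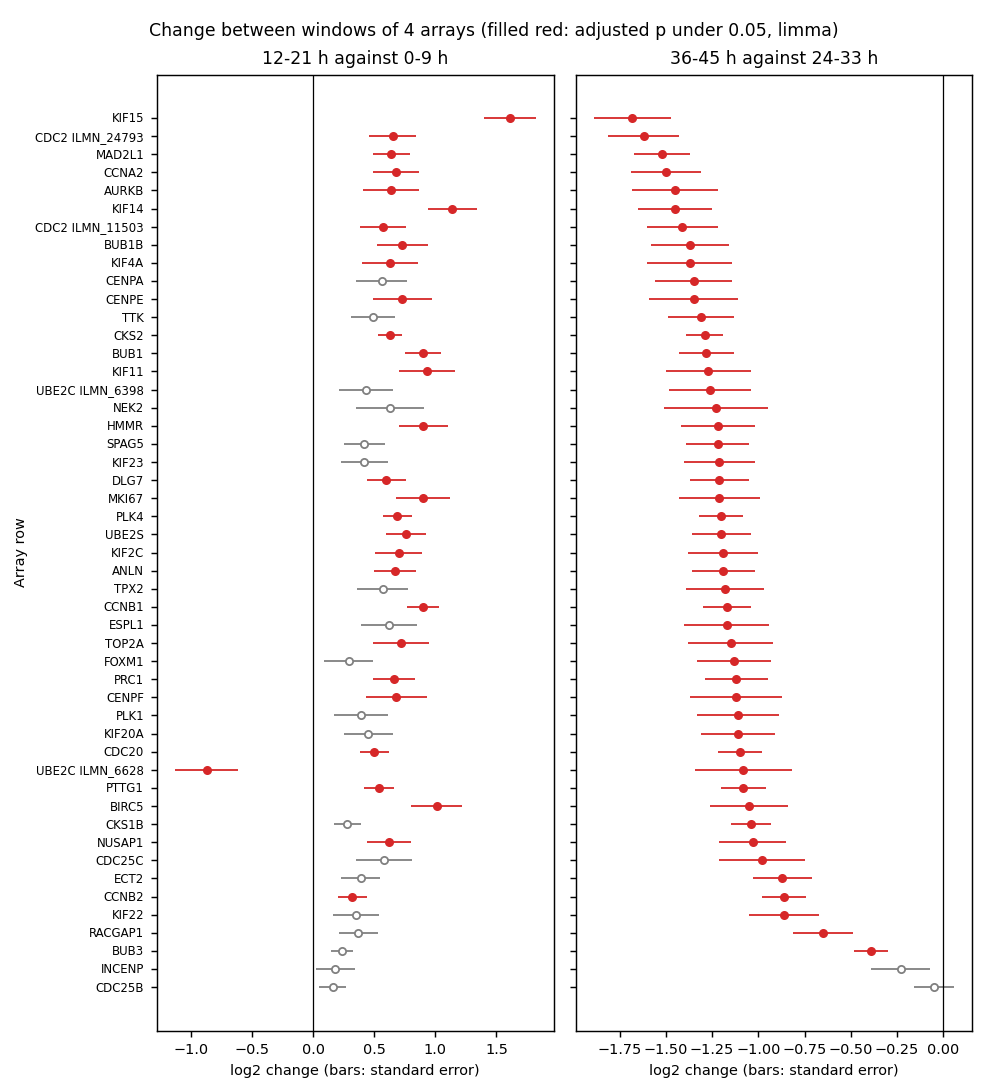
Log2 change from 0-9 to 12-21 hours (left) and from 24-33 to 36-45 hours (right) for each of the 49 rows, with its standard error as a bar; filled red points have an adjusted p under 0.05 and open grey points do not. All but the UBE2C ILMN_6628 row lie right of 0 on the left, and all lie left of 0 on the right.

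This loss was spread over several steps. Within the third window, 44 of 49 rows were lower from 27 to 30 hours (median -0.19) and 45 from 30 to 33 hours (median -0.22). From 33 to 36 hours 48 of 49 rows were lower, with a median change of -0.49, and 6 of them lost at least 1.7-fold, beside 2.97% of all rows. These 6 are MAD2L1 (1.91-fold), KIF15 (1.89-fold), BIRC5 (1.96-fold), CDC2 ILMN_24793 (1.85-fold), PTTG1 (1.79-fold) and CKS2 (1.77-fold). The whole array also moved at this step: 3.41% of all rows gained at least 1.7-fold, against 0.301% from 30 to 33 hours and 0.201% from 36 to 39 hours. As at 12 hours, the part of any batch was not tested. From 36 to 39 hours all 49 were lower again, with a median of -0.39. From 39 to 42 hours 39 were lower (median -0.09), and from 42 to 45 hours 46 were (median -0.39).

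From the first to the last window, 34 of 49 rows fell, beside 15% of all rows, and none rose, beside 16.2% of all rows. The median change was -0.67, or 1.59-fold lower, against -0.02 over all rows. UBE2C ILMN_6628 fell by 1.94 (SE 0.26, adjusted p = 2.3e-05), FOXM1 by 1.06 (SE 0.20, adjusted p = 0.00066), KIF4A by 0.94 (SE 0.23, adjusted p = 0.0041), CCNA2 by 0.91 (SE 0.19, adjusted p = 0.0014) and KIF20A by 0.90 (SE 0.20, adjusted p = 0.0027). In 20 of 49 rows the groups did not overlap, beside 12.3% of all rows. Leaving out the array of 45 hours gave a count of 27, and leaving out that of 36 hours 42. It was 10, with a median of -0.54, for the change from 0-9 to 12-21 hours added to that from 24-33 to 36-45 hours. This sum leaves out the difference between the means of 12-21 and 24-33 hours. It holds the means of all the windows, so its standard error is larger.

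Set against the 0 hour array alone, 43 of 49 rows stood at least 1.7-fold below it at 1 or more later times, beside 21.9% of all rows. Above it by that much were 17 of 49 rows, beside 23.8% of all rows. These counts rest on 1 array as reference and have no test.

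Within each window the rows also tended to decline from the first array to the last. The last array was the lower in 43 of 49 rows at 0-9 hours (median -0.52), in 45 at 12-21 hours (median -0.48), in 45 at 24-33 hours (median -0.32) and in 49 at 36-45 hours (median -0.88), where the share of all rows lay between 48.3% and 51%. With 1 slope common to the 4 windows, 25 of 49 rows declined, beside 0.602% of all rows, and none climbed, beside 0.0418% of all rows. This test was added after the courses had been seen, and it describes them. The median slope was -0.19 per 3 hours on the log2 scale. AURKB, the kinase of the chromosomal passenger complex, had a slope of -0.28 (SE 0.03, adjusted p = 0.00013) and UBE2C ILMN_6398 one of -0.27 (SE 0.03, adjusted p = 4.6e-05). MAD2L1 (-0.05, SE 0.05, adjusted p = 0.72) and PTTG1 (0.01, SE 0.04, adjusted p = 0.94) did not pass.

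The cyclins, CDK1 and its regulators had 9 rows, of which 6 rose from 0-9 to 12-21 hours and 8 fell from 24-33 to 36-45 hours. CCNB1, the cyclin that carries CDK1 into mitosis, measured 10.64, 10.44, 10.34 and 10.27 at 0, 3, 6 and 9 hours, 11.25, 11.44, 11.34 and 11.27 at 12 to 21 hours, 11.36, 11.54, 11.22 and 11.09 at 24 to 33 hours, and 10.38, 10.31, 10.15 and 9.67 at 36 to 45 hours. All 8 arrays of the middle windows lay above all 8 of the outer ones. It rose by 0.90 (SE 0.13, adjusted p = 0.00011) and later fell by 1.17 (SE 0.13, adjusted p = 3.7e-06), whereas the last window lay 0.30 below the first in the mean (-0.30, SE 0.13, adjusted p = 0.10).

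CCNA2, the cyclin that binds CDK2 in S phase and CDK1 later, differed from CCNB1 in the first hours. It measured 10.75, 10.91, 11.16 and 11.14 in the first window, 11.94, 11.92, 11.52 and 11.32 in the second, 11.69, 11.68, 11.63 and 11.31 in the third, and 10.68, 10.09, 10.00 and 9.54 in the last. It was thus one of the 6 rows higher at 9 hours than at 0 hours, while CCNB1 was one of the 43 that were lower. CCNB2, a second B-type cyclin, averaged 12.61 ± 0.21 (SD over 4 arrays), 12.93 ± 0.14, 12.87 ± 0.14 and 12.01 ± 0.23 in the 4 windows.

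Both rows of CDC2, the gene now called CDK1, ran in parallel. ILMN_11503 averaged 11.46 ± 0.28, 12.03 ± 0.33, 12.08 ± 0.28 and 10.67 ± 0.38, and it rose by 0.57 (SE 0.19, adjusted p = 0.034) and fell by 1.41 (SE 0.19, adjusted p = 2.3e-05). The small CDK-binding proteins CKS1B and CKS2 fell by 1.04 (SE 0.11, adjusted p = 1.7e-06) and 1.29 (SE 0.10, adjusted p = 1.4e-07). Of the CDK1-activating phosphatases, CDC25C fell by 0.98 (SE 0.23, adjusted p = 0.0028). CDC25B did not pass in any comparison: its 4 window means were 12.71, 12.86, 12.92 and 12.87, and its highest array was that of 36 hours.

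**Figure D3:**
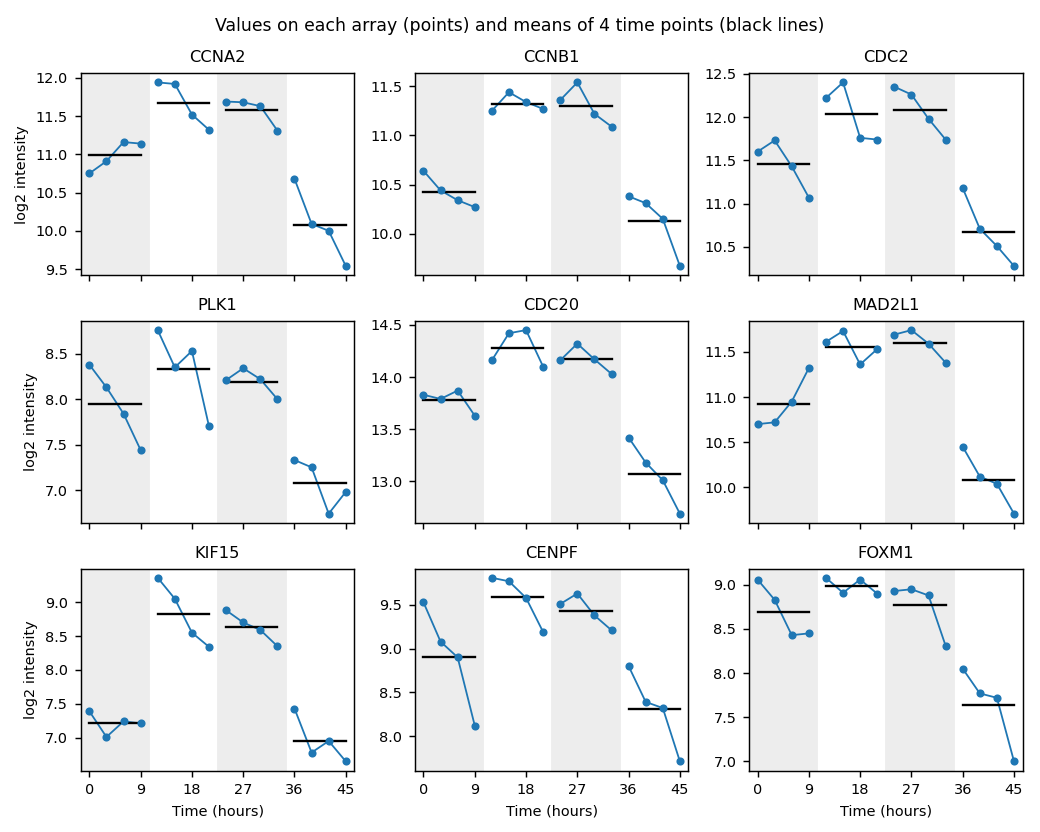
Log2 intensity against time for 9 mitosis genes, with 1 point per array, blue lines joining the arrays of a window and black lines at the window means; grey marks the windows of 0-9 and 24-33 hours. CCNA2 and MAD2L1 climb during the first 9 hours while CENPF and PLK1 decline, and from 36 hours all 9 genes are below their levels at 24 to 33 hours; the vertical axes differ.

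All 4 rows of mitotic kinases fell from 24-33 to 36-45 hours. PLK1, the Polo-like kinase of centrosomes and kinetochores, measured 8.38, 8.13, 7.84 and 7.44 at 0 to 9 hours, 8.76, 8.35, 8.53 and 7.70 at 12 to 21 hours, 8.21, 8.34, 8.22 and 8.0 at 24 to 33 hours, and 7.33, 7.25, 6.74 and 6.98 at 36 to 45 hours. The first and second windows overlapped, and the change of 0.39 between them did not pass (SE 0.22, adjusted p = 0.20). The later fall of 1.11 did (SE 0.22, adjusted p = 6e-04).

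AURKB was at 11.71, 11.45, 11.29 and 10.93 in the first window, 12.23, 12.11, 11.88 and 11.70 in the second, 12.32, 12.18, 11.80 and 11.31 in the third and 11.03, 10.49, 10.45 and 9.83 in the last. It declined from array to array in each window, as its slope shows, and it rose by 0.64 between the first pair of windows with an adjusted p of 0.048, which was 0.056 with cyclic loess normalization and lay between 0.012 and 0.13 over the alternatives. PLK4, the kinase of centriole duplication, rose by 0.69 (SE 0.12, adjusted p = 0.00047) and fell by 1.2 (SE 0.12, adjusted p = 1.2e-06). AURKA, under its older symbol STK6, rose by 0.57 (SE 0.17, adjusted p = 0.019) and fell by 1.22 (SE 0.17, adjusted p = 3.2e-05). NEK2, a centrosome kinase, fell by 1.23 (SE 0.28, adjusted p = 0.002).

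The 5 spindle checkpoint genes, which hold back anaphase until every chromosome is attached, all fell in the last window against both the first and the third. MAD2L1 measured 10.70, 10.72, 10.95 and 11.32 at 0 to 9 hours, 11.61, 11.73, 11.36 and 11.53 at 12 to 21 hours, 11.69, 11.74, 11.59 and 11.38 at 24 to 33 hours, and 10.45, 10.12, 10.04 and 9.71 at 36 to 45 hours. It had the largest early gain of the set, 0.62 from 0 to 9 hours. BUB1 stayed between 9.79 and 9.86 over the first 4 arrays, rose by 0.90 (SE 0.15, adjusted p = 0.00032) and fell by 1.28 (SE 0.15, adjusted p = 5.7e-06). TTK, a kinase of the same checkpoint, averaged 9.63 ± 0.33, 10.12 ± 0.28, 10.12 ± 0.16 and 8.80 ± 0.33. BUB3 fell by 0.39 (SE 0.09, adjusted p = 0.0032).

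The partners of the anaphase-promoting complex, with securin and separase, gave 6 rows, and each of them fell in the last window. CDC20, its activator, measured 13.83, 13.79, 13.87 and 13.63 in the first window, 14.16, 14.42, 14.45 and 14.10 in the second, 14.16, 14.32, 14.17 and 14.03 in the third, and 13.42, 13.18, 13.01 and 12.69 in the last. The second window lay above the first and the last below all others without overlap. It rose by 0.50 (SE 0.12, adjusted p = 0.0043) and fell by 1.10 (SE 0.12, adjusted p = 2.3e-06). UBE2S, which extends ubiquitin chains for the complex, rose by 0.76 (SE 0.16, adjusted p = 0.0018), and PTTG1, securin, by 0.54 (SE 0.12, adjusted p = 0.0034). ESPL1, separase, fell by 1.17 (SE 0.23, adjusted p = 0.00066).

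The rows of UBE2C, the enzyme that starts these chains, had unlike courses. ILMN_6398 measured 14.10, 14.09, 13.71 and 13.28 at 0 to 9 hours, 14.46, 14.45, 14.13 and 13.86 at 12 to 21 hours, 14.50, 14.40, 14.05 and 13.71 at 24 to 33 hours, and 13.42, 12.94, 12.91 and 12.34 at 36 to 45 hours. ILMN_6628 measured 9.39, 9.77, 9.65 and 8.93, then 8.99, 8.81, 8.25 and 8.21, then 9.10, 8.84, 8.27 and 8.06, and then 7.97, 7.67, 7.22 and 7.11. The first row was higher at 12 hours than at 9 hours by 2.27-fold and the other by 1.04-fold. From 0-9 to 12-21 hours ILMN_6628 fell by 0.87 (SE 0.26, adjusted p = 0.016), the only fall among the 49 rows, whereas ILMN_6398 changed by 0.43 (SE 0.22, adjusted p = 0.16). No row was called lower in that comparison without the 3, the 18 or the 21 hour array. Both rows fell from 24-33 to 36-45 hours, by 1.08 (SE 0.26, adjusted p = 0.0029) and 1.26 (SE 0.22, adjusted p = 0.00024). The difference between the rows was not tested, and which transcripts they detect was not analysed here.

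**Figure D4:**
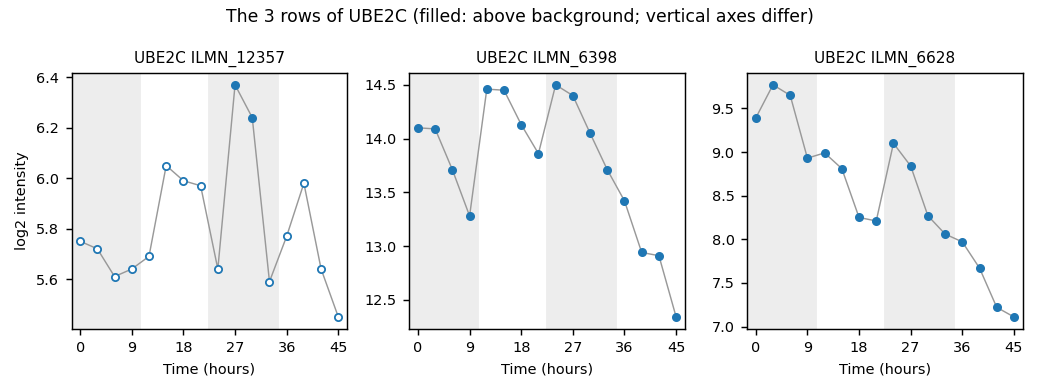
Log2 intensity against time for the 3 rows of UBE2C, with filled points above background and open points not; grey marks the windows of 0-9 and 24-33 hours and the vertical axes differ. ILMN_6398 peaks at 24 hours and ILMN_6628 at 3 hours, while ILMN_12357 is above background on 2 arrays.

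Of 8 rows of kinesins, 5 rose at 12-21 hours and 8 fell at 36-45 hours. KIF15 measured 7.39, 7.01, 7.24 and 7.21 in the first window, 9.36, 9.05, 8.55 and 8.34 in the second, 8.88, 8.70, 8.59 and 8.35 in the third, and 7.43, 6.78, 6.95 and 6.65 in the last. The middle 8 arrays lay above the outer 8, and the change from the first to the last window was not called (-0.26, SE 0.21, adjusted p = 0.36). KIF11, the motor that pushes the spindle poles apart, averaged 8.94 ± 0.37, 9.87 ± 0.35, 9.60 ± 0.21 and 8.34 ± 0.49. The central spindle kinesins KIF20A and KIF23 ILMN_11802 fell by 1.11 (SE 0.20, adjusted p = 0.00035) and 1.21 (SE 0.19, adjusted p = 9.7e-05), and their earlier changes of 0.45 and 0.42 did not pass (adjusted p = 0.11 each).

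Spindle microtubule proteins gave 6 rows, of which 4 rose and 6 later fell. TPX2, which activates Aurora A on the spindle, averaged 10.72 ± 0.39, 11.28 ± 0.29, 11.11 ± 0.21 and 9.92 ± 0.47 and fell by 1.18 (SE 0.21, adjusted p = 0.00031). HMMR, a microtubule-binding protein, rose by 0.90 (SE 0.20, adjusted p = 0.0029) and fell by 1.22 (SE 0.20, adjusted p = 0.00014). PRC1, which bundles microtubules of the central spindle, rose by 0.66 (SE 0.17, adjusted p = 0.0082) and fell by 1.12 (SE 0.17, adjusted p = 6.9e-05). NUSAP1, DLG7 and SPAG5 fell by 1.03 to 1.22.

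CENPF, a large protein of the outer kinetochore, had the largest early difference. It measured 9.53, 9.08, 8.90 and 8.12 at 0 to 9 hours, 9.81, 9.77, 9.58 and 9.19 at 12 to 21 hours, 9.51, 9.63, 9.38 and 9.21 at 24 to 33 hours, and 8.80, 8.39, 8.32 and 7.71 at 36 to 45 hours. Its difference of -1.41 from 0 to 9 hours was followed by those of CENPA, the centromeric histone H3 variant (-1.04), and BIRC5 (-1.04). The rise of CENPF by 0.68 passed narrowly (SE 0.25, adjusted p = 0.049) and did not when all rows of the array were tested (adjusted p = 0.059, between 0.0081 and 0.14 over the alternatives). CENPA and CENPE, a kinetochore kinesin, each fell by 1.35 in the last window.

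BIRC5, survivin of the chromosomal passenger complex, measured 7.66, 6.66, 6.44 and 6.62 in the first window, 7.95, 8.0, 7.84 and 7.65 in the second, 7.31, 7.90, 7.75 and 7.82 in the third, and 6.86, 6.57, 6.75 and 6.41 in the last. Only its 0 hour array stood high in the first window, and its change from the first to the last window was not called (-0.20, SE 0.21, adjusted p = 0.51). INCENP, the scaffold of that complex, was above background on 3 arrays, and neither its change of 0.18 nor that of -0.23 passed (adjusted p = 0.44 and 0.29). Among the cytokinesis genes, ANLN, a scaffold of the contractile ring, averaged 10.96 ± 0.18, 11.63 ± 0.21, 11.54 ± 0.22 and 10.35 ± 0.42, while the RhoA regulators ECT2 and RACGAP1 fell by 0.87 (SE 0.16, adjusted p = 0.00039) and 0.65 (SE 0.16, adjusted p = 0.0045).

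TOP2A, which untangles sister chromatids, averaged 11.42 ± 0.43, 12.13 ± 0.34, 12.04 ± 0.17 and 10.89 ± 0.48, and MKI67, the Ki-67 proliferation antigen, 7.20 ± 0.37, 8.11 ± 0.43, 8.03 ± 0.31 and 6.83 ± 0.27. Both rose and then fell (TOP2A by 1.15, SE 0.23, adjusted p = 0.00064; MKI67 by 1.21, SE 0.22, adjusted p = 0.00039). The condensin subunits were found under older symbols. HCAP-G, now NCAPG, averaged 10.50 ± 0.20, 11.24 ± 0.25, 11.18 ± 0.26 and 9.71 ± 0.50 and fell by 1.47 (SE 0.20, adjusted p = 1.9e-05). CNAP1, SMC2L1 and SMC4L1 ILMN_15944 fell by 0.62, 0.90 and 1.02, and BRRN1, above background on 5 arrays, changed by 0.03 (SE 0.11, adjusted p = 0.85). Of the 6 tested rows under older symbols, 5 rose and later 5 fell, beside 15.1% and 18.7% of all rows.

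FOXM1, a transcription factor known to activate many of these genes, measured 9.06, 8.83, 8.43 and 8.45 at 0 to 9 hours, 9.08, 8.91, 9.06 and 8.90 at 12 to 21 hours, 8.93, 8.95, 8.88 and 8.31 at 24 to 33 hours, and 8.05, 7.77, 7.72 and 7.0 at 36 to 45 hours. The first 3 windows overlapped and the last lay below them all. Its change to 12-21 hours was 0.29 (SE 0.20, adjusted p = 0.31), and it fell by 1.13 from 24-33 to 36-45 hours (SE 0.20, adjusted p = 0.00027).

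Other genes of the cell cycle, in lists chosen with earlier results of these data known, are given beside the set by their counts. Of 35 rows of other mitosis genes, 20 rose from 0-9 to 12-21 hours, beside 15.1% of all rows. From 24-33 to 36-45 hours 33 fell, beside 18.7% of all rows. The medians were 0.59 and -1.30. The largest losses were those of the kinetochore subunit SPBC25 (-2.04, adjusted p = 3e-06), the phosphatase CDC25A (-1.85, adjusted p = 0.00012) and SGOL1, a protector of centromeric cohesion (-1.78, adjusted p = 4e-06). Of the anaphase-promoting complex with its activator FZR1, 4 of 12 rows rose and 1 fell, beside 15.1% and 14.4% of all rows. Later 5 fell, beside 18.7%, and the medians of the 2 comparisons were 0.14 and -0.13. ANAPC1 rose by 0.96 (adjusted p = 0.001) and fell by 0.59 (adjusted p = 0.02), ANAPC7 fell by 0.61 (adjusted p = 0.0015) and ANAPC10 by 0.42 (adjusted p = 0.035).

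Genes of DNA replication also rose and later fell for the most part. Of 22 rows, 18 rose and 1 fell at 12-21 hours (median 0.74), beside 15.1% and 14.4% of all rows. At 36-45 hours 21 fell and 1 rose (median -1.36), beside 18.7% and 19.3% of all rows. MCM10, a factor for origin firing, fell by 2.05 (adjusted p = 3.4e-05), POLE2, a DNA polymerase epsilon subunit, by 2.04 (adjusted p = 1.9e-05), and RRM2, of ribonucleotide reductase, by 2.0 (adjusted p = 4e-06). POLA moved the other way, falling by 0.62 and later rising by 0.51. The median centred level of the replication rows was -0.46 at 6 hours and 0.20 at 9 hours, when that of the mitosis rows was -0.16 and -0.35. These are values side by side, and a difference in timing was not tested.

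Among inhibitors of CDKs and other genes of cell cycle exit, 1 of 9 rows rose and 3 fell at 12-21 hours, beside 15.1% and 14.4% of all rows. At 36-45 hours against 24-33 hours, 5 rose and none fell, beside 19.3% and 18.7% of all rows. The medians were -0.15 and 0.45. CDKN1C, which encodes p57, rose by 1.35 (adjusted p = 0.0011), BTG1, an antiproliferative gene, by 1.28 (adjusted p = 0.00061), and CDKN2C, which encodes p18, by 1.18 (adjusted p = 0.00067). CDKN1A, which encodes p21, did not pass (0.22, adjusted p = 0.35). At 36-45 hours against 0-9 hours, limma called neither CDKN1C (0.67, adjusted p = 0.082), BTG1 (0.39, adjusted p = 0.25) nor CDKN2C (0.43, adjusted p = 0.18). In that comparison 2 of 9 rows rose and none fell, beside 16.2% and 15% of all rows. The 2 were the CDK inhibitor CDKN1B (0.70, adjusted p = 0.022) and RBL2 (0.72, adjusted p = 0.00015). The median centred level of the 9 rows was 0.79 at 0 hours and 0.45 at 45 hours.

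**Figure D5:**
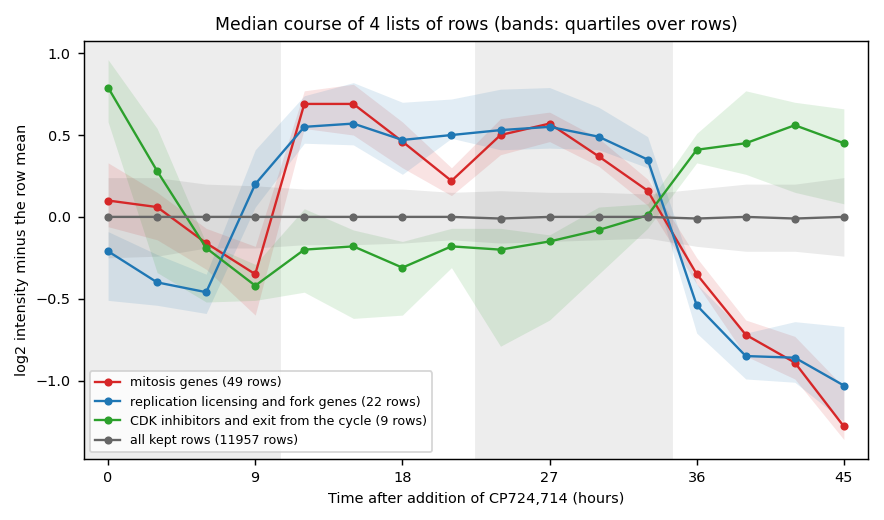
Median over rows of the log2 intensity minus the mean of each row, against time, for the mitosis genes, the replication genes, the CDK inhibitors with other genes of cell cycle exit, and all tested rows; bands span the quartiles over rows and grey marks the windows of 0-9 and 24-33 hours. At 9 hours the replication genes stand at 0.20 and the mitosis genes at -0.35, and at 45 hours both are low. The median of the CDK inhibitors with other genes of cell cycle exit is above the row mean at 45 hours (0.45) and also at 0 hours (0.79).

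Outside the set, the rows whose course was most like the mean course of the 49 rows, by correlation over the 16 arrays, were TACC3 (r = 0.989), OIP5 (0.988), CDCA2 (0.98), ZWINT, MELK, SPBC25 and CDCA5 (0.979 each), RNASEH2A and CEP55 (0.977 each) and WDR62 (0.976). In all, 225 rows had r over 0.9, and 42 of them were among the 49. The points are a time series on shared arrays, so r is a description of likeness. The median r of the 49 rows with their own mean course was 0.96, and the lowest was that of CDC25B, at 0.38.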

How the data were processed

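Each of 16 cultures was measured on 1 array, and no time point had a replicate, so that windows of 4 time points stood in for groups. The authors deposited intensity values per row on a linear scale, without normalization across arrays, together with detection p-values that set every row against the negative control beads; the methods state quantile normalization, and the tool of summary is not given in the sources used here. Background was corrected with normexp (offset 16, with the control level estimated through those p-values), followed by quantile normalization and log2 in limma 3.58.1 (R 4.3.3). Rows were kept where 3 or more arrays had a detection p under 0.05. The offset and the background understate changes of dim rows. With limma, a natural spline of time (3 degrees of freedom), contrasts of the 4 windows and a slope common to the windows were fitted over all 11957 rows with a variance trend, with Benjamini-Hochberg adjusted p-values and calls under 0.05. P-values measure the spread between arrays of single cultures. The spline and window tests ran on simulated data first, and the slope test, added later, did not. Alternatives covered background, normalization, filter, curve, arrays in the fit and each array left out. For named genes with several rows, the row of highest mean intensity was used. Values per array or window means were given for 20 central genes; also named were the 5 largest changes of each comparison, rows against the majority, the 3 largest called changes of each other list and the 10 most similar courses. Others were picked after their values were seen. Members and lists were chosen with earlier results of these data known. Figures were drawn with matplotlib 3.10.9.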

Additional observations from a re-analysis of the deposited data

Results flagged for a closer look

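In 20 genes, each window of 4 arrays was searched for an array far from the other 3, with a gap to its nearest neighbour, as a share of the range of the window, above Dixon's critical value. Of 80 windows, 4 held one, and chance alone flags about 1 in 20. At 33 hours CCNA2 stood at 11.31 and the nearest array of its window at 11.63. FOXM1 was also low at 33 hours, at 8.31 against 8.88. TPX2 stood at 10.86 at 21 hours against 11.37. BUB1 stood at 9.86 at 0 hours against 9.80, within a window whose values differed little. The 3 low values were each the last array of their window.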

How the results depend on the processing

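The median change between the middle windows, where no row was called, was -0.10 and turned to 0.02 with median scaling; the medians of the other comparisons of windows kept their direction under the alternatives tried. Of the 49 rows, 47 were time-dependent with the spline but 8 with a straight line in time, which cannot follow a rise and a fall. Against 0-9 hours, 34 rows were lower at 36-45 hours, but 10 when the difference between the means of 12-21 and 24-33 hours was left out. That contrast has a larger standard error, and any other cause was not tested. Rows at least 1.7-fold above the 0 hour array numbered 17, and 9 were at least 2-fold above it. Apart from these, the counts of called rows, both directions together, over time, in the 4 comparisons of windows and for the slope within windows stayed within 1.5 times those reported. Counts for single steps and for the other gene lists were not recomputed. Leaving out 1 array at a time gave 46 to 47 rows over time, 21 to 37 from 0-9 to 12-21 hours, 0 to 0 between the middle windows, 47 to 47 from 24-33 to 36-45 hours, 27 to 42 from 0-9 to 36-45 hours, and 21 to 27 for the slope within windows. Median scaling gave 41 rises at 12-21 hours, with the median of all rows at 0.09. No paired analysis was possible because each time point holds replicate 1 alone. A fit with the chip as a block was planned and not run, because no chip is named. Intensity close to background limits INCENP, ECT2, BRRN1, the rows left out and the lowest arrays of other dim rows. Raw intensity went down to 202 in ESPL1, 205 in NEK2, 221 in BIRC5, 224 in MKI67 and 236 in KIF15. The estimated mean of the negative controls lay between 166 and 199.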

Other observations

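Cohesin and condensin II, which hold and compact sister chromatids, moved in a mixed way. Of 8 tested rows, 4 rose from 0-9 to 12-21 hours, beside 15.1% of all rows, and from 24-33 to 36-45 hours 4 fell and 1 rose (limma), beside 18.7% and 19.3%. hCAP-D3, a condensin II subunit now called NCAPD3, rose by 1.38 (adjusted p = 2e-04) and fell by 1.10 (adjusted p = 0.00074), and the cohesin subunit RAD21 rose by 0.66 (adjusted p = 0.0089) and fell by 0.70 (adjusted p = 0.0043). STAG2, another cohesin subunit, rose by 0.44 from 24-33 to 36-45 hours (adjusted p = 0.023).

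Of 7 tested rows of the DREAM and B-MYB complexes, which control genes with a CHR, 2 rose, beside 15.1% of all rows, and later 5 fell, beside 18.7% of all rows. RBL1 ILMN_522, which encodes p107, fell by 0.90 (adjusted p = 0.00014), LIN9 by 0.80 (adjusted p = 5.8e-05) and C14orf46, now LIN52, by 0.51 (adjusted p = 0.018). The pocket protein gene RBL2, which encodes p130, is outside these 7 rows and was listed with the genes of cell cycle exit. In limma it rose by 0.36 from 0-9 to 12-21 hours (adjusted p = 0.025) and by 0.38 from 24-33 to 36-45 hours (adjusted p = 0.013).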
